A study of Mus musculus with 10 samples.

Results

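Hepatocytes that had lost Nrf2 were compared with control hepatocytes, to find which transcripts depend on this factor in the otherwise uninjured adult liver. The comparison used 5 of the 10 mice that were sequenced, 2 labelled Nrf2 KO and 3 labelled Control, and covered the 13641 of 21939 listed genes that had at least 10 counts summed over all libraries. The mice were males of 8 to 9 weeks on a C57BL/6J background. Control mice were wild type, Nrf2 KO mice carried floxed alleles of Nrf2 (Nrf2 flox/flox), and both received AAV8Cre, an adeno-associated virus that expresses Cre recombinase from the hepatocyte-specific thyroxine-binding globulin promoter. The controls therefore had the virus but no floxed allele, so that an effect of the floxed line and an effect of the deletion cannot be told apart. RNA was taken 12 days after the injection from freshly isolated, Percoll-purified hepatocytes, with 1 library per mouse. The other 5 libraries were used as a second look at the same deletion: 2 were from p65 flox/flox mice (p65 KO) and 3 from mice with floxed alleles of both genes (DKO), all with AAV8Cre. DKO against p65 KO removes Nrf2 from hepatocytes without the NF-kB subunit p65, and shares no library with Nrf2 KO against control.

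Nrf2, encoded by Nfe2l2, is a transcription factor that is held in the cytoplasm and marked for degradation by Keap1 until electrophiles or oxidants modify this inhibitor. It then pairs with small Maf proteins on antioxidant response elements and raises genes for glutathione synthesis, for the enzymes that couple toxic compounds to glutathione or glucuronic acid, and for the pumps that export the conjugates. The hepatocyte is the main site of this detoxification in the body.

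Total estimated counts ranged from 36170874 to 49897382 in the 5 libraries. Hepatocyte markers were abundant, with Alb between 2472210 and 4159530 normalized counts per library, whereas the 12 Kupffer cell markers together reached 264 to 957 and the 9 sinusoidal endothelial markers 665 to 1705. The genotypes overlapped in both sums. The 3 tested cholangiocyte markers did not overlap, with 391, 266, and 387 counts in control and 150 and 194 in Nrf2 KO, mostly from Sox9 (log2 fold change -0.97, adjusted p = 0.0601). The 6 tested T and NK cell markers did not overlap either. They summed to 24.295, 36.384, and 14.009 in control and were higher in Nrf2 KO, at 62.284 and 59.007. Of the 12 hepatocyte markers 6 lay above every control, beside 14.8% of all genes tested, and none was called. No member of the 9 lists of non-hepatocyte markers was called, beside 0.55% of all genes tested. At that share such short lists would hold few calls or none, so the count does not show that the cell content was alike. The part of these cells in the results was not tested. In such bulk samples fewer cells of a type and less RNA per cell cannot be told apart. Normalized counts are the estimated counts divided by the library's TMM-scaled size and multiplied by the mean of these sizes. A gene was called where edgeR's adjusted p did not exceed 0.05 and the level changed by 1 or more on the log2 scale.

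Nfe2l2 itself (ENSMUSG00000015839, GRCm39 chr2:75504739-75534985, minus strand) was higher after its deletion. It had 2318, 1991, and 1990 normalized counts in the control libraries and 4739 and 5005 in Nrf2 KO, without overlap, and its log2 fold change was 1.21 (SE 0.156, adjusted p = 0.00488). In DKO it had 4111, 3434, and 5240 counts against 1993 and 1997 in p65 KO, a log2 fold change of 1.09 (adjusted p = 0.00903). The value is a sum over the whole gene and does not separate the deleted part from the rest, so it shows that the libraries labelled as Nrf2-deficient stand apart in this gene but not how much functional transcript was left. Of the other 9 regulators of the pathway, including the inhibitor Keap1 and the small Maf genes Maff, Mafg, and Mafk, none was called. Below every control lay 5 of them, and the shares over all genes tested were 0.55% called and 13.6% below every control.

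In Nrf2 KO 60 genes were lower and 15 higher than in control, which is 0.44% and 0.11% of the genes tested and together 0.55%. All 75 had libraries that did not overlap between the genotypes. Over all genes tested, both Nrf2 KO libraries lay below every control for 13.6% and above every control for 14.8%. Another 24 genes passed the adjusted p with a smaller fold, among them the ferritin chains Ftl1 (log2 fold change -0.95) and Fth1 (-0.70) and thioredoxin reductase Txnrd1 (-0.73). Just outside the threshold on p was Nqo1, the quinone reductase often used as an Nrf2 readout, which had 218, 181, and 182 counts in control and 84.0 and 63.0 in Nrf2 KO (log2 fold change -1.40, adjusted p = 0.0561).

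The calls depended on single libraries. Leaving out Nrf2 KO 2 left 18 called genes, leaving out Nrf2 KO 1 left 33, and leaving out Control 1, 2, or 3 left 37, 40, and 61. With 1 Nrf2 KO library left, that library is assumed to vary like the other genotypes. Of the 75 genes, 16 were called under each of the 14 alternative settings that were run, the 5 that leave out a library included. Among these were Gsta13, Gsta2, Gstm1, Aox1, Ephx1, Ugt2b5, Ugt2b35, Ces1b, and Mup12, and, from distal chromosome 4 and from a copy of one of its genes, Zfp982, Zfp984, Miip, Prxl2b, Tmem51, and Eno1b.

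Enzymes and transporters of detoxification made up 25 of the 60 decreased genes, counted over the lists of glutathione transferases, the glutathione and thioredoxin system, quinone, carbonyl, epoxide, and heme enzymes, glucuronidation, carboxylesterases, and hepatic transporters. In this order the lists held 23, 19, 22, 17, 13, and 20 tested genes, and 0.44% of all genes tested were called lower. The lists were chosen with earlier results of these data known. The decrease of the 25 genes was also seen without p65. All 25 had a lower fitted value in DKO than in p65 KO, 23 had no overlap there, and 17 were called lower, against 0.968% of all genes called lower in that comparison and 20.1% with all DKO libraries below both p65 KO libraries. For none of the 25 was the difference between both Nrf2 effects called (62 calls or 0.455% over all genes tested). At this share a set of 25 genes would hold few such calls or none, so equal effects cannot be read from it. Over all genes, DKO against p65 KO gave 243 calls (1.78%), with 132 lower (0.968%) and 111 higher (0.814%); scaled to plain library totals it gave 418 lower and 86 higher, since this scaling moved the median log2 fold change by -0.27. Kupffer cell markers summed to 6083 and 4470 in p65 KO and to 1662 to 2924 in DKO. Stellate cell markers summed to 1689 and 1704 in p65 KO and to 267 to 747 in DKO, and sinusoidal endothelial markers to 4465 and 3462 and to 1870 to 2583. Monocyte and dendritic cell markers were lower in DKO too, whereas erythroid, T and NK cell, and B cell markers were higher. The part of all these cells in that comparison was not tested.

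Glutathione transferases couple reactive compounds to glutathione, and 8 of their 23 tested members were called lower and none higher, with 15 below every control library. The median log2 fold change of the list was -0.69, beside 0.00 over all genes tested. Gstm1 had 110478, 116086, and 95274 normalized counts in control and 16030 and 11566 in Nrf2 KO. Both Nrf2 KO values lay far below the lowest control value, and the log2 fold change was -2.96 (SE 0.223, adjusted p = 0.000219). Gstm3 fell in the same way, from 6875, 4748, and 3313 to 799 and 477 (log2 fold change -2.97, SE 0.415, adjusted p = 0.00921). Summed over the 7 Gstm genes, the level was 110469 to 133296 in control and 18805 and 24864 in Nrf2 KO.

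Of the alpha class, Gsta13 had no count in either Nrf2 KO library, against 241, 212, and 154 normalized counts in control. This is at least a 75.1-fold decrease, taking 3 counts per library as the floor. Its neighbour Gsta1 had 467, 408, and 381 counts in control and 28.7 and 12.1 in Nrf2 KO (log2 fold change -4.38, adjusted p = 0.0122). Both share most of their sequence, with 90.9% of the 31-base words of Gsta13 also found in Gsta1, so the split of reads between them is uncertain. The mice without p65 showed the same, as Gsta13 had 171 and 263 counts in p65 KO but 0, 4.49, and 0 in DKO. Gsta2 had 1474, 1492, and 1784 counts in control and 310 and 307 in Nrf2 KO (log2 fold change -2.36, adjusted p = 0.000999), and Gsta4 had a log2 fold change of -1.11 (adjusted p = 0.0428). Gstp1, a pi-class enzyme, had 198494, 133921, and 119845 counts in control and 63296 and 65479 in Nrf2 KO (log2 fold change -1.23, adjusted p = 0.0419), whereas DKO and p65 KO overlapped for it (log2 fold change -0.10). Gstp3, in contrast, had its Nrf2 KO values above all controls (765 and 741 against 336, 446, and 469) without passing the test (adjusted p = 0.074).

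In glutathione synthesis and the thioredoxin system, 2 of 19 tested genes were called, both lower, and 12 lay below every control. Gclc, the catalytic subunit of the rate-limiting enzyme of glutathione synthesis, had 27771, 22722, and 18703 counts in control and 10523 and 9409 in Nrf2 KO (log2 fold change -1.21, adjusted p = 0.0179). It was also lower in DKO (5111, 5326, and 4600) than in p65 KO (10823 and 7563). Srxn1, which repairs overoxidized peroxiredoxins, had 2269, 2040, and 1613 counts in control and 780 and 806 in Nrf2 KO (log2 fold change -1.32, adjusted p = 0.00597).

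Among the 22 enzymes that act on quinones, carbonyls, epoxides, and heme, 2 were called lower, 15 lay below every control, and 2 lay above. Aldehyde oxidase Aox1 had 6314, 5684, and 4227 counts in control and 1228 and 990 in Nrf2 KO (log2 fold change -2.29, SE 0.212, adjusted p = 0.000563). Ephx1, the microsomal epoxide hydrolase, had 33305, 22782, and 22282 counts in control and 7528 and 5947 in Nrf2 KO (log2 fold change -1.96, adjusted p = 0.00141). No gene of the pentose phosphate and NADPH supply list was called among 7 tested, although 6 had negative fitted values. Its lowest value was that of malic enzyme Me1 (log2 fold change -1.12, adjusted p = 0.379).

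Of 17 tested genes of glucuronidation, 6 were called lower, 12 lay below every control and none above, and the median log2 fold change was -1.02. Ugdh, which makes the UDP-glucuronic acid that the transferases use, had 11989, 8288, and 6747 counts in control and 3096 and 2963 in Nrf2 KO (log2 fold change -1.57, adjusted p = 0.0175). Of the transferases, Ugt2b5 fell from 66549, 47431, and 50173 to 14609 and 14137 (log2 fold change -1.93, adjusted p = 0.00052), and Ugt2b35 from 17494, 15107, and 10732 to 3153 and 3216 (log2 fold change -2.18, adjusted p = 0.000487). Both groups were far apart for these genes, and the Nrf2 KO libraries of each lay close together. Ugt1a6a, Ugt2b36, and Ugt2b1 were lower with log2 fold changes of -1.49, -1.26, and -1.06. As 58.3% of the 31-base words of Ugt1a6a occur in other genes, its own level is uncertain. The 7 Ugt2b genes together had 128675 to 168773 counts in control and 51163 and 53608 in Nrf2 KO, so that the family total did not overlap either. Of 8 tested genes for sulfotransferases, the other main conjugating enzymes, and their cofactor, none was called, none lay below every control, and 4 lay above. The shares over all genes tested were 0.55% called, 13.6% below, and 14.8% above. At the first 2 shares a list of 8 would hold few such genes or none, so their absence does not set this list apart.

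Carboxylesterases hydrolyse ester drugs and stored lipids, and 4 of 13 tested were called lower. Ces1b had 3264, 2874, and 3116 counts in control and 546 and 455 in Nrf2 KO, with a log2 fold change of -2.62 (SE 0.159, adjusted p = 3.36e-05). Ces1g had 9798, 10076, and 10074 counts in control and 1721 and 1191 in Nrf2 KO (log2 fold change -2.78, adjusted p = 0.00216). The controls of Ces1g differed by little, and both Nrf2 KO values lay far below them. Ces2c and Ces1d were lower too, with log2 fold changes of -2.81 and -1.18. For Ces2c, 64.2% of the 31-base words occur in transcripts of other genes.

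Of 20 hepatic transporters, 3 were called lower and none higher, while 10 lay below every control and 5 above. Abcc3, the basolateral pump for glucuronides and bile salts, had 9159, 11190, and 10670 counts in control and 1048 and 137 in Nrf2 KO. The Nrf2 KO libraries differed from each other by a larger ratio than the controls did, and both were below them (log2 fold change -4.13, SE 0.707, adjusted p = 0.0253). In DKO it had 337, 727, and 352 counts against 10123 and 7721 in p65 KO. Abcc12 had 74 counts in all in control and 1 in Nrf2 KO, a ratio of 55.6 with an exact 95% counting interval from 9.67 to 2225. The efflux pump Abcg2 had a log2 fold change of -1.16 (adjusted p = 0.0253) in Nrf2 KO but -0.17 in DKO against p65 KO.

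**Figure D1:**
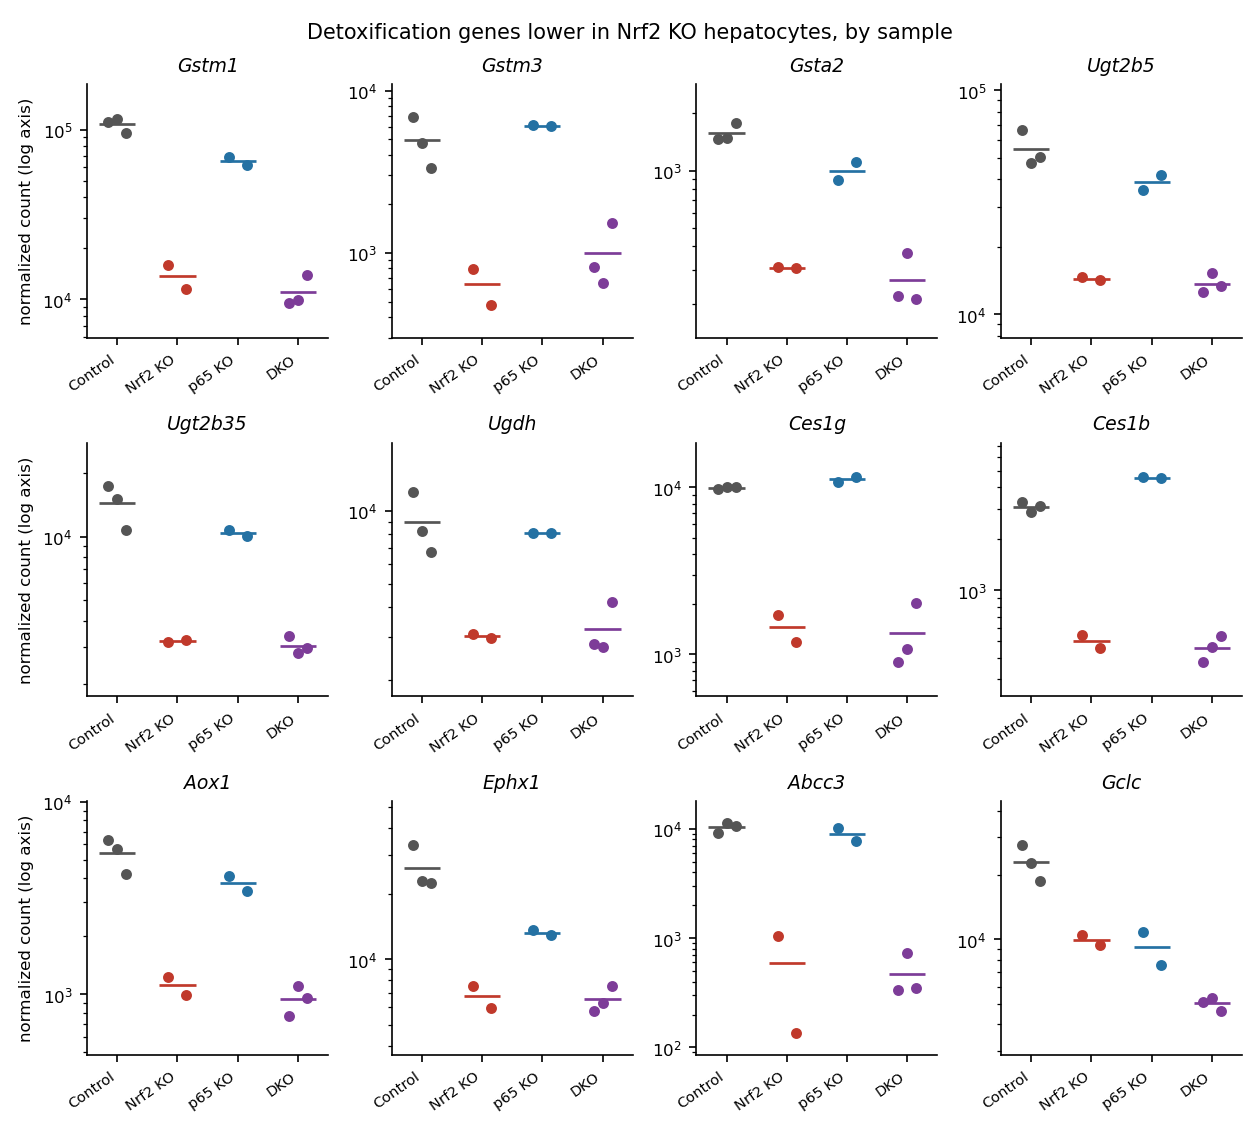
Normalized counts (log axis) of 12 genes of glutathione and glucuronic acid conjugation, ester and epoxide hydrolysis, aldehyde oxidation, and efflux in each of the 10 libraries, grouped by genotype; points are libraries and lines are group means. For each gene both Nrf2 KO libraries sit below the 3 controls and the 3 DKO libraries below both p65 KO libraries, with Abcc3 showing the widest spread between the Nrf2 KO mice (1048 and 137).

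Of 24 tested genes of cytochrome P450 drug metabolism, 8 lay below every control and 4 above, and the single call was Nr1i3, the nuclear receptor CAR that controls many of them, with 4301, 4522, and 4679 counts in control and 1966 and 1892 in Nrf2 KO (log2 fold change -1.22, adjusted p = 0.0172). It was also lower in DKO than in p65 KO (log2 fold change -1.92, adjusted p = 0.000791). Cyp2a5 had 10066, 4659, and 5153 counts in control and 1059 and 1897 in Nrf2 KO without passing the test (adjusted p = 0.228). Cyp3a25 passed the adjusted p with a smaller fold, and Cyp3a59, which is not on the list, was called lower (log2 fold change -1.17, adjusted p = 0.0174). Cyp3a11, Cyp2c29, Cyp1a2, and Cyp2e1, which are abundant in hepatocytes, had log2 fold changes between -0.39 and 0.42. Alas1, the first enzyme of heme synthesis, had 14138, 10406, and 4732 counts in control and 1786 and 1594 in Nrf2 KO (log2 fold change -2.53, adjusted p = 0.0412).

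Several decreased genes outside these lists behaved in the same manner in both comparisons. Degs1l, a desaturase-like gene near Ephx1 on chromosome 1, had 993, 746, and 649 counts in control and 54.4 and 19.4 in Nrf2 KO (log2 fold change -4.46, adjusted p = 0.00335), and a log2 fold change of -3.02 in DKO against p65 KO. The glycine conjugation gene Keg1 fell from 14754, 11733, and 11300 counts to 3663 and 3348. The adenosine receptor Adora1, the nucleotidase Entpd5, the secreted glycoprotein Creg1, and the iron-binding protein Pir had log2 fold changes of -1.62, -1.45, -1.04, and -1.05, and of -2.56, -1.35, -0.77, and -0.90 in DKO against p65 KO, each with an adjusted p under the threshold. Vtcn1, an immune checkpoint ligand, had 144 counts in all in control and 3 in Nrf2 KO, a ratio of 36.1 (exact 95% counting interval from 12.1 to 177).

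The core of the antioxidant response element, TGACNNNGC, was sought on both strands from 250 bases before to 50 bases after the annotated starts in the RefSeq promoter table. It was present in 7 of the 49 decreased genes with a promoter in this table (14.3%) and in 4 of the 9 increased ones (44.4%), against 16.8% of the genes tested and 14% of all genes in the table. The share in the decreased genes was thus no higher than that over the genes tested, which says nothing of sites outside this window. Matches in Nfe2l2 and in 3 decreased genes with a role in the response are printed along the gene's strand with 10 flanking bases; capitals mark the core, which reads GCNNNGTCA where it lies on the opposite strand, and coordinates are GRCm39 positions of the same bases.
Nfe2l2, chr2:75535229-75535257, minus strand: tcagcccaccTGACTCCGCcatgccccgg
Pir, chrX:163052203-163052231, plus strand: gcatagagagGCTGAGTCActcccccaaa
Srxn1, chr2:151947462-151947490, plus strand: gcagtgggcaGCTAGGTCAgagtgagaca
Ugdh, chr5:65593299-65593327, minus strand: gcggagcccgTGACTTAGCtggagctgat
Ugdh, chr5:65593261-65593289, minus strand: tcctcaagggGCGTGGTCAtacagttcgg
Ugdh held the core at 2 positions. A match of these letters is a description of the promoter and not a binding site.

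Genes of fatty acid oxidation and targets of PPARa, the nuclear receptor that switches the liver to fat burning, were the second large group of decreases. Of 28 tested genes 27 had negative fitted values, 21 (75%) lay below every control, none lay above, and the median log2 fold change was -0.78. The test called 5 of them, and 3 more, with Plin2 and Cpt2 among them, passed the adjusted p with a smaller fold. Vnn1, a pantetheinase and PPARa target, had 1547, 1466, and 1650 counts in control and 473 and 386 in Nrf2 KO (log2 fold change -1.86, adjusted p = 0.00201). Ehhadh, the peroxisomal bifunctional enzyme, had 31245, 28939, and 32643 counts in control and 13356 and 10055 in Nrf2 KO (log2 fold change -1.40, adjusted p = 0.0428).

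The 3 lowest fitted values of the list were those of Cyp4a14, Cyp4a10, and Cyp4a31, hydroxylases of fatty acids. Cyp4a31 was called (log2 fold change -2.24, adjusted p = 0.0404), as was Cyp4a32 (-1.03, adjusted p = 0.00465), which shares 52.6% of its 31-base words with other genes. Cyp4a14 had 11401, 14078, and 29874 counts in control and 2992 and 1094 in Nrf2 KO, and Cyp4a10 had 26673, 23698, and 41453 counts in control and 4296 and 3361 in Nrf2 KO. Both were below every control, but the spread between mice was wide and neither passed the test (adjusted p = 0.251 and 0.211). Cyp4a12b, which is not on the list, was called lower (log2 fold change -1.95, adjusted p = 0.00949), while its neighbour Cyp4a12a, which holds 62.7% of its 31-base words, had a value of 0.03. Ppara itself overlapped between the genotypes (log2 fold change -0.07). Among the genes of mitochondrial oxidation, Cpt2 had a log2 fold change of -0.69 (adjusted p = 0.0478), Cpt1a of -0.26, and Acadm of -0.40.

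In contrast to the detoxification genes, this group was not lower in DKO than in p65 KO. There, 13 of 28 genes had negative and 15 positive fitted values, with a median of 0.02, and scaling to library totals shifts all values of this comparison by about -0.27. The difference between both Nrf2 effects was called for Cyp4a31 (3.94, adjusted p = 0.0221) and Cyp4a32 (1.52, adjusted p = 0.00825), and had an adjusted p of 0.0698 for Vnn1 and 0.104 for Ehhadh. The levels show where the comparisons part: Vnn1 had 327 and 395 counts in p65 KO and 188, 276, and 327 in DKO, beside 473 and 386 in Nrf2 KO. Likewise, the 6 Cyp4a genes summed to 60212 to 93301 in control, 25919 and 23489 in Nrf2 KO, 9511 and 15425 in p65 KO, and 7373 to 22581 in DKO. Fgf21, a fasting hormone and PPARa target, was called lower in both comparisons, with 394, 248, and 273 counts in control, 117 and 88.1 in Nrf2 KO, 366 and 226 in p65 KO, and 22.1, 15.7, and 25.2 in DKO. Its log2 fold changes were -1.58 (adjusted p = 0.0411) and -3.81 (adjusted p = 0.000279).

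**Figure D2:**
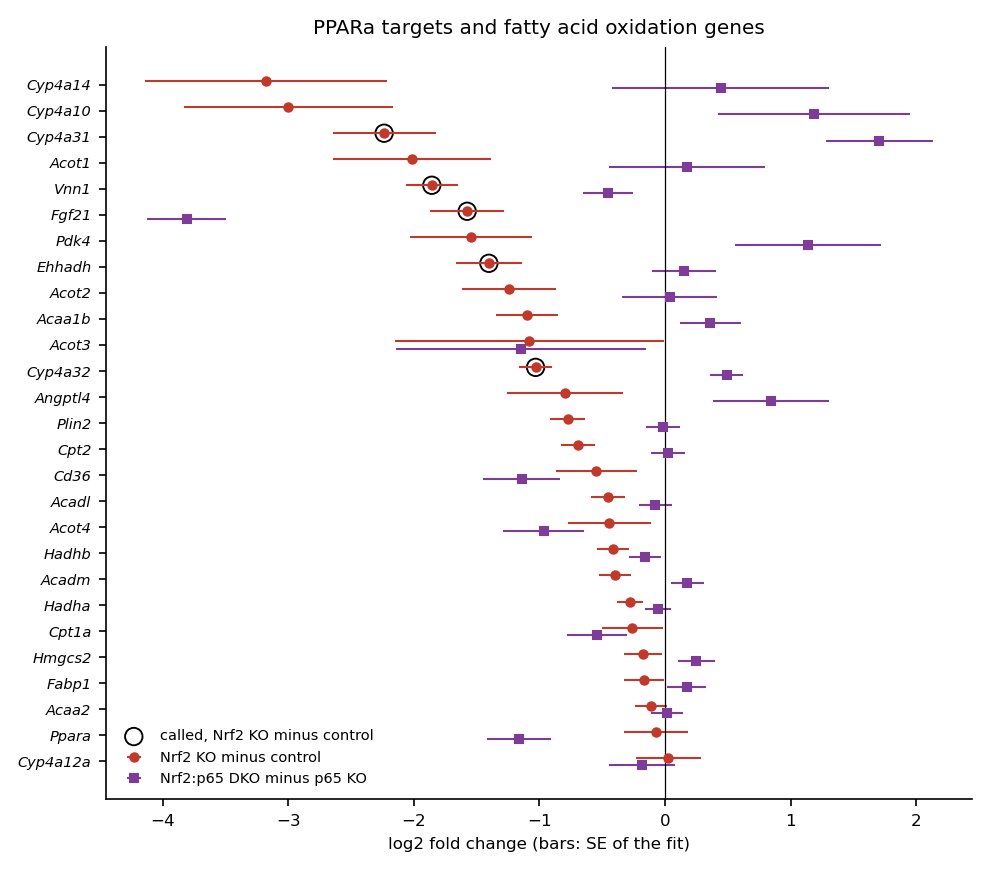
Log2 fold changes with the standard error of the fit (bars) for 27 of the 28 genes of the PPARa and fatty acid oxidation list, in Nrf2 KO minus control (circles) and DKO minus p65 KO (squares); rings mark the 5 genes called in Nrf2 KO. All but Cyp4a12a lie left of 0 in Nrf2 KO, whereas in DKO minus p65 KO the squares fall on both sides and Fgf21 is the lowest at -3.81.

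Lipogenic genes pointed the other way without passing the test. None of 18 was called, 7 lay above every control and 1 below, and the median log2 fold change was 0.19. The fatty acid synthase Fasn had 12816, 23605, and 13869 counts in control and 35054 and 38599 in Nrf2 KO (log2 fold change 1.14, adjusted p = 0.274), and the regulator Srebf1 had 4195, 5902, and 4239 counts in control and 8791 and 11505 in Nrf2 KO (log2 fold change 1.09, adjusted p = 0.115). No gene was called in the lists of cholesterol synthesis (19 tested), bile acid synthesis (14), insulin, IGF, growth factor, and Notch signalling (20), S phase and G2/M (37), NF-kB targets (25), acute phase proteins (20), integrated and ER stress (19), or the clock (17). At the overall share of 0.55%, lists of this size would hold few calls or none, so this does not show that they were unchanged. In the insulin list 7 lay above every control and 1 below, and in S phase and G2/M 3 above and 9 below. The shares over all genes tested were 14.8% above and 13.6% below. In the glucose list of 18, the calls were Eno1 and Eno1b. The clock genes Dbp and Per3 separated the Nrf2 KO mice from each other, with 87.0 and 1719 counts for Dbp and 87.0 and 467 for Per3 in Nrf2 KO 1 and 2, and 45.3, 54.1, and 426 for Dbp in control.

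The 9 proliferation genes that the study names were chosen on these samples, so that their direction is not independent evidence. Separately, the study stained liver sections for Ki67 protein 12 days after injection, in more mice, and reported fewer positive hepatocytes in Nrf2 KO. All 9 genes had lower fitted values in Nrf2 KO. Of them, 7 lay below every control (13.6% over all genes tested), and none was called (0.55%). Their levels were low: Mki67 had 15.5, 11.8, and 14.9 normalized counts in control and 2.97 and 2.42 in Nrf2 KO (adjusted p = 0.132), and Cdk1 had 28.7, 30.5, and 35.5 in control and 6.92 and 18.6 in Nrf2 KO (adjusted p = 0.461). Aurkb, a mitotic kinase, had no count in Nrf2 KO and 6.54 to 11 normalized counts in control, without passing the test (adjusted p = 0.192). With 3 counts per library as the floor this is at least a 3.15-fold decrease, a bound that leaves out the spread between mice. In DKO against p65 KO none of the 9 was called, and none had all DKO libraries below both p65 KO libraries. The shares over all genes tested were 1.78% and 20.1%. At these shares 9 genes would hold few of either or none, so an unchanged level cannot be read from this.

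**Figure D3:**
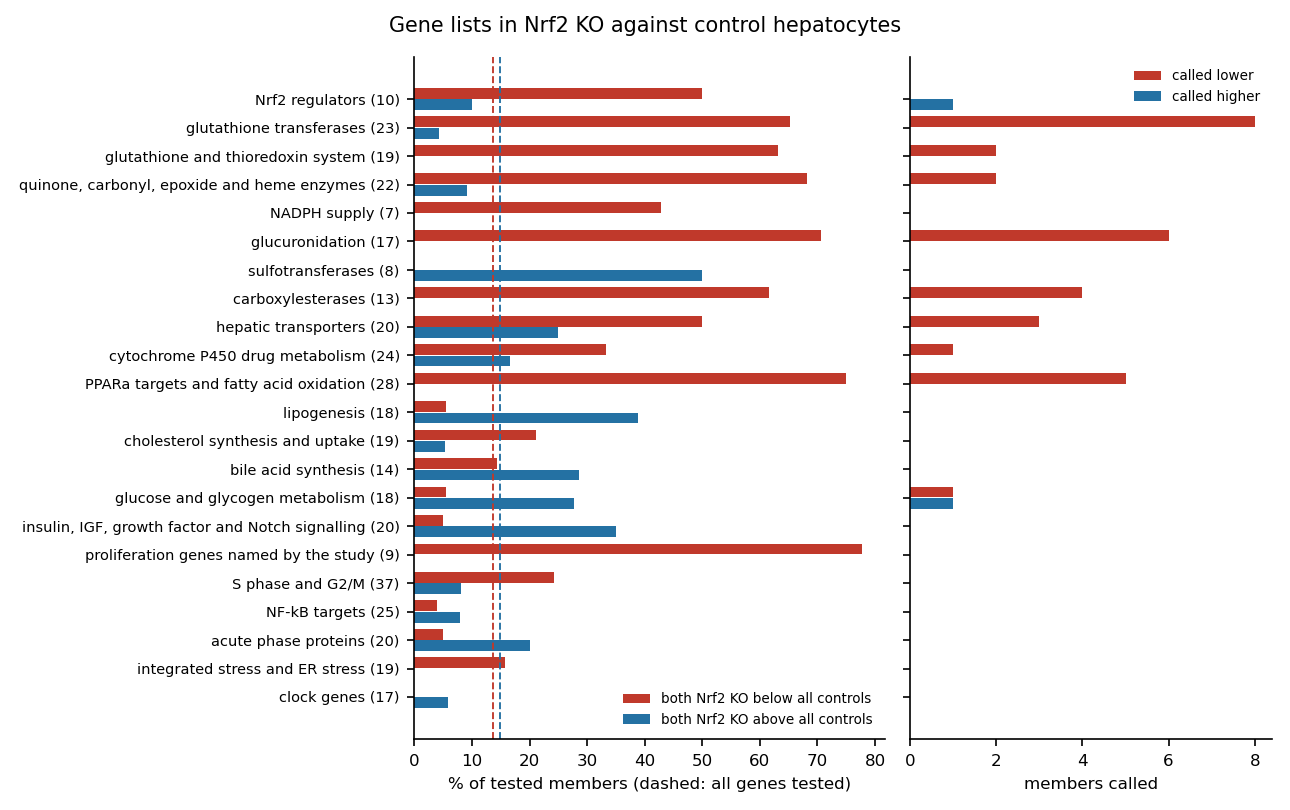
Left, the percentage of tested members (number in brackets) of each gene list for which both Nrf2 KO libraries lie below (red) or above (blue) all 3 controls, with the share over all genes tested as dashed lines (13.6% and 14.8%); right, the number of members called. The PPARa list has 75% of its members below all controls, sulfotransferases have none, and glutathione transferases have the most calls (8).

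Apart from Nfe2l2 and Eno1b, none of the 15 increased genes belonged to a pathway list. Car3, a carbonic anhydrase that is abundant in hepatocytes and fat, had 71127, 65750, and 62977 counts in control and 138443 and 158477 in Nrf2 KO (log2 fold change 1.16, adjusted p = 0.00222), and a log2 fold change of 0.76 in DKO against p65 KO (adjusted p = 0.0194). The kinase Sgk1 had 231, 131, and 138 counts in control and 803 and 437 in Nrf2 KO (log2 fold change 1.90, adjusted p = 0.0172). It and Nfe2l2 were the increased genes that were also called higher in DKO against p65 KO. The cAMP phosphodiesterase Pde4b had 424, 317, and 209 counts in control and 910 and 1114 in Nrf2 KO (log2 fold change 1.68, adjusted p = 0.0175) but 0.32 in DKO against p65 KO. The proton pump subunit Atp6v0d2 and the phosphatase Synj2 had log2 fold changes of 2.40 and 1.34 in Nrf2 KO and of -1.52 and -0.62 in DKO against p65 KO, and the difference was called for both (-3.92 and -1.96).

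Another group of changes was marked by its position and not by its function. Of the 75 called genes, 18 lay on chromosome 4, where 858 genes were tested (2.10%, beside 0.55% overall). Within 10 Mb of Eno1 on distal chromosome 4, 10 of 154 tested genes were called (6.49%), 7 lower and 3 higher, and 77 (50%) had libraries that did not overlap. On the rest of chromosome 4, 8 of 704 genes were called (1.14%) and 28.7% had libraries that did not overlap. The window was chosen after the values had been seen. Those named here have no common role: the zinc finger genes Zfp982 and Zfp984, the cell migration inhibitor Miip, the ubiquitin ligase subunit Fbxo44, the exchange factor Arhgef16, the receptor kinase Epha2, glycolytic Eno1, the prostamide synthase Prxl2b, and the membrane protein Tmem51. Clstn1 in the same window fell just outside the threshold (log2 fold change 3.10, adjusted p = 0.0605).

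Zfp982 (GRCm39 chr4:147545583-147601280) was nearly absent, with 158, 200, and 142 normalized counts in control and 1.98 and 0 in Nrf2 KO. The 498 counts in control and 2 in Nrf2 KO give a ratio of 187 with an exact 95% counting interval from 51.5 to 1549. In DKO it had 61.0, 92.0, and 108 counts against 148 and 113 in p65 KO. Tmem51 (chr4:141755714-141812390) rose from 96.1, 115, and 106 to 605 and 859 (log2 fold change 2.79, SE 0.220, adjusted p = 0.000272), whereas it had 109, 77.4, and 84.7 counts in DKO and 186 and 130 in p65 KO. Zfp984, whose level is uncertain because 74.6% of its 31-base words occur in other genes, had 57.4, 51.1, and 49.5 counts in control and 2.97 and 0.808 in Nrf2 KO. Prxl2b rose from 331, 352, and 360 to 1140 and 1262. For each of these genes the control replicates lay close together and the genotypes far apart. The Nrf2 KO replicates were close for Prxl2b, differed more for Tmem51, and held few counts for Zfp982 and Zfp984.

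Eno1, the alpha-enolase of glycolysis (chr4:150321073-150337027), had 16354, 14692, and 14164 counts in control and 6400 and 6870 in Nrf2 KO (log2 fold change -1.18, adjusted p = 0.00608). Eno1b, its copy on chromosome 18, had 65.2, 16.7, and 54.2 counts in control and 8624 and 9629 in Nrf2 KO (log2 fold change 7.66, SE 0.454, adjusted p = 3.36e-05). Their sum was 16419, 14709, and 14218 in control and 15023 and 16498 in Nrf2 KO, with overlap between the genotypes. Of the 31-base words of Eno1b, 90.8% also occur in other transcripts, with 84.2% in Gm75782, which is not in this sum, so that the split of reads is uncertain. In DKO Eno1b had 65.2, 25.8, and 34.3 counts and in p65 KO 18.3 and 44.4.

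None of these 10 genes, nor Eno1b, was called in DKO against p65 KO, where their log2 fold changes lay between -0.80 and 0.64. The difference between both Nrf2 effects was called for 8 of these 11 and for 7 of the 64 genes called elsewhere. Both groups were chosen on values that enter the difference, and the window after they were seen, so these counts are a description. Within 5 Mb of Nfe2l2 on chromosome 2, 2 of 48 tested genes were called, Nfe2l2 and the exchange factor Rapgef4 (log2 fold change -1.31, adjusted p = 0.0411), and Rapgef4 had -0.30 in DKO against p65 KO. The genotype of the mice around these genes was not tested.

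**Figure D4:**
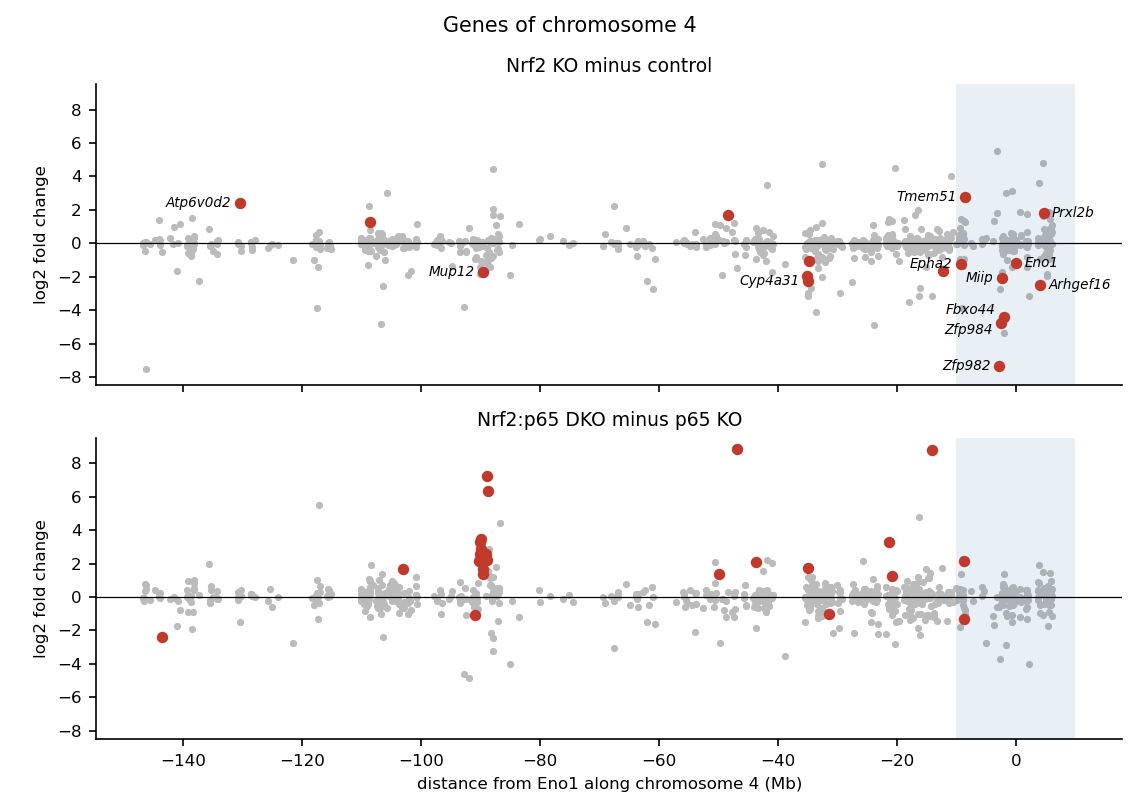
Log2 fold changes of 857 of the 858 tested genes of chromosome 4 by distance from Eno1 (Mb), in Nrf2 KO minus control (top) and DKO minus p65 KO (bottom); red points are called genes and the shaded band spans 10 Mb on each side of Eno1. The band shows 9 called genes in the upper panel, and the 2 called genes in the lower panel's band are others.

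Elsewhere in the genome, 64 genes were called in Nrf2 KO, 53 lower and 11 higher. Of the 53, 45 had negative fitted values in DKO against p65 KO and 24 were called lower there. Cyp4a31 and Mup12 were called in the opposite direction. Mup12, a major urinary protein, had 12415, 10531, and 11969 counts in control, 3071 and 4075 in Nrf2 KO, 3852 and 4867 in p65 KO, and 16644, 12898, and 12745 in DKO. Both single knockouts were thus below control and the DKO was not. As 94.1% of its 31-base words occur in other genes, mainly Mup1, its own level is uncertain. Retsat, a retinol saturase, was lower in Nrf2 KO (log2 fold change -1.11, adjusted p = 0.0175), with a value of 0.66 in DKO against p65 KO, and the inflammasome-related Nlrp12 had -1.54 (adjusted p = 0.00952) and 0.30.

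**Figure D5:**
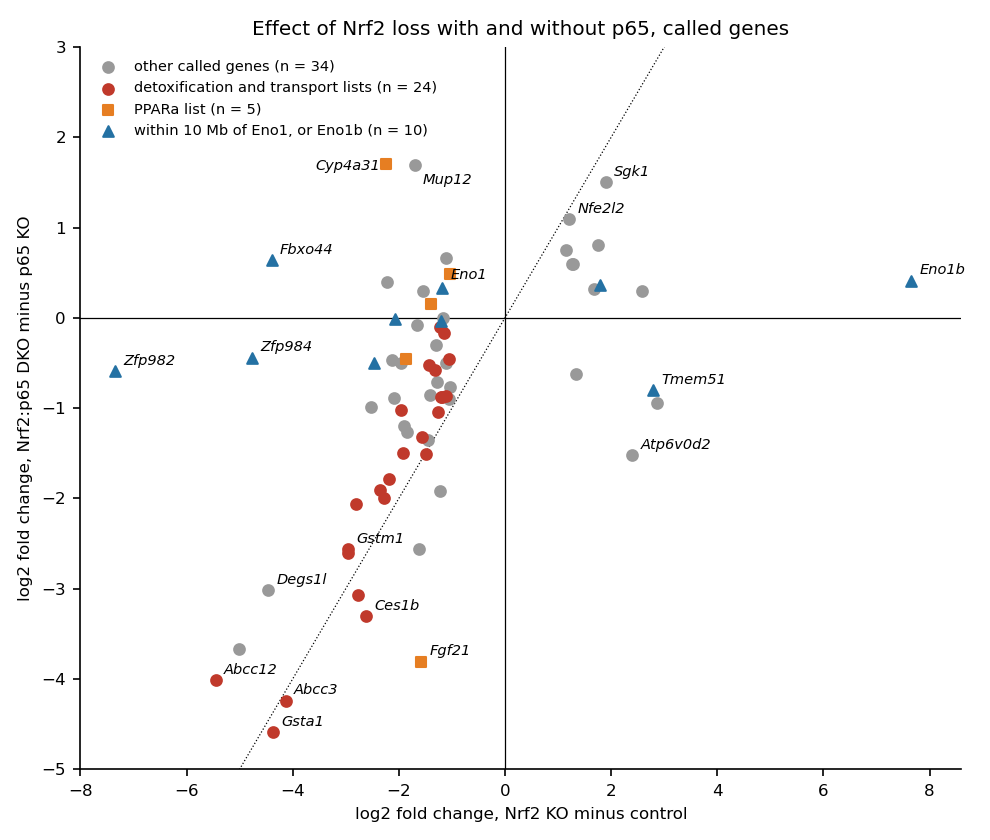
Log2 fold change in DKO minus p65 KO against that in Nrf2 KO minus control for 73 of the 75 genes called in Nrf2 KO (Gsta13, without a count in Nrf2 KO, is among those left out); the dotted line marks equal effects. The 24 detoxification and transport genes shown are all negative on both axes, and the 10 genes shown near Eno1 or Eno1b spread along the horizontal axis and lie between -0.80 and 0.64 on the vertical one.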

How the data were processed

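The authors quantified stranded poly-A reads with Salmon 1.10.3 on GRCm39 with GENCODE M33; the deposited values are estimated counts of genes as whole numbers. The table carries a name that speaks of normalization, but library totals differ and the values were taken as unscaled. The 21939 identifiers were named from GENCODE M39. Counts were tested with edgeR 4.0.16 (quasi-likelihood, TMM, Benjamini-Hochberg) in R 4.3.3, all 4 genotypes in 1 fit, and standard errors were derived from the F statistic; the methods were tested on simulated data. The study's own test was DESeq2, run here as version 1.42.0 beside limma 3.58.1. P-values measure the spread between single mice. Named genes were the targeted gene, the 20 largest decreases and 10 largest increases that were called and averaged 50 or more normalized counts, up to 6 called and 2 other members of each list, and genes the study names; other called genes were added after their values were seen. Members and lists were chosen with earlier results of these data known. Shared 31-base words were counted in M39 transcripts. Some genes and sequences are not reported here. Counting intervals and floors cover counting error only.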

Additional observations from a re-analysis of the deposited data

Results flagged for a closer look

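The effect of Nrf2 loss in hepatocytes without p65 (DKO minus p65 KO) differed from that in hepatocytes with p65 (Nrf2 KO minus control) by edgeR's test of the difference for 15 of the 75 genes called in Nrf2 KO, of which 14 are given. On the log2 scale the difference was -7.25 for Eno1b, -3.92 for Atp6v0d2, -3.59 for Tmem51, -1.96 for Synj2, and -1.43 for Prxl2b, all higher in Nrf2 KO than in control. It was 1.52 for Eno1, 1.52 for Cyp4a32, 1.77 for Retsat, 1.84 for Nlrp12, 2.07 for Miip, 3.40 for Mup12, 3.94 for Cyp4a31, 4.33 for Zfp984, and 6.76 for Zfp982, all lower in Nrf2 KO. The fitted values of Zfp982 and Zfp984 rest on few counts in Nrf2 KO. Over all genes tested, 62 (0.455%) were called for the difference. The 75 genes were chosen on Nrf2 KO minus control, which enters the difference, so that 15 of 75 is a description.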

How the results depend on the processing

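With 2 and 3 mice per genotype, the number of calls moved with the setting, while none of the named genes that were called in Nrf2 KO changed sign against control. The 75 calls in Nrf2 KO became 135 with DESeq2, which held all 75, and 33 with limma on log2 values plus 1. The share of calls that were lower moved without TMM factors from 54.3% to 82.9% in DKO against p65 KO and from 41.9% to 77.1% for the difference. For the difference the called set itself changed, from 62 genes with 26 lower to 118 with 91 lower. The median difference moved by -0.27, which is less than the log2 fold change of 1 that a call needs. For DKO against p65 KO, 243 calls became 453 with DESeq2, 504 without TMM factors, and 124 with only the groups compared. For the difference, 62 calls became 249 with DESeq2, 118 without TMM factors, and 137 without the filter. Leaving out 1 library gave 18 to 61 calls in Nrf2 KO, 72 to 299 in DKO against p65 KO, and 8 to 119 for the difference (Nrf2 KO 2 left out gave the fewest for the first and the last; p65 KO 1, p65 KO 2, and DKO 1 left out gave 74, 72, and 112 for the second). Replicate numbers are shared by the genotypes, but same-numbered libraries did not deviate together (correlations from -0.232 to 0.113); with the replicate block the counts were 56, 181, and 53.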
